A study of Mus musculus with 4 samples.

Results

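Kinesins are motor proteins that step along microtubules. Some build and move the mitotic spindle of dividing cells, and others carry vesicles, organelles and proteins down the axons and dendrites of neurons. The members described here are all genes whose single symbol in the array's gene table starts with Kif and a digit, each read from whichever of its probe sets was highest on average across the 4 arrays. The rule gave 38 genes on 44 probe sets, out of 19938 genes with 1 symbol: 37 kinesin heavy chain genes and the pseudogene Kif4-ps. They were placed by textbook role into 11 mitotic motors, 10 motors of axonal transport, 5 motors of dendritic and endosomal cargo, 6 motors of cilia and centrioles, 5 others and the pseudogene.

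RNA came from the pontine nucleus of ICR mice at embryonic day 17.5 (E17.5) and at postnatal days 1, 5 and 14 (P1, P5 and P14), with no genetic change or treatment named in the labels. Pontine neurons are glutamatergic, lie in the ventral brainstem and send mossy fibre axons to the cerebellum. Dissected tissue of 27, 16, 13 and 12 mice, in order of age, was pooled onto 1 Affymetrix array per age, so there is no replicate and no test, and every difference below is between 2 single arrays. Values are log2 signals per probe set, and a difference of 1 is 2-fold.

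A spindle is built once per cell division and is not needed afterwards, and several spindle motors are also known to act on the microtubules of young neurons. Long axons depend on the anterograde motors of the kinesin-1, kinesin-2 and kinesin-3 families, which bring synaptic vesicle precursors, membrane proteins and mitochondria from the cell body to the terminals. Mossy fibres of pontine neurons form their synapses after birth.

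By their values the arrays were not in the sequence of their labels, so those labelled P5 and P14 are named as labelled throughout. Over the 19938 genes, Pearson's r with E17.5 was 0.991 for P1, 0.946 for the array labelled P5 and 0.978 for the array labelled P14. The value labelled P14 lay strictly between P1 and the value labelled P5 in 50.9% of all genes and in 19 of 38 members. The value labelled P5 lay between P1 and the value labelled P14 in 14.8% of genes and in 4 of 38 members. Mog, a myelin surface protein, stood at 7.18, 7.39, 12.91 and 8.27 on the arrays labelled E17.5, P1, P5 and P14, and Dcx, a microtubule protein of young neurons, at 12.97, 12.88, 9.79 and 12.14. Of 10 listed pontine and glutamatergic genes, Barhl1 stood between 10.83 and 12.23 and Pax6 between 10.01 and 11.52. The glutamate transporter gene Slc17a6 stood between 11.17 and 11.57. The list was not uniform: Neurod1 stood only between 5.73 and 6.14. Slc17a7 stood at 8.16 at E17.5 and at 12.90 on the array labelled P5. In these bulk samples, fewer cells of a type and less RNA per cell cannot be told apart.

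Letters near the start sites of the mitotic motors are described here. Whether they have a part in the array values was not tested. The CHR (cell cycle genes homology region) hexamer TTTGAA is a promoter element known from genes expressed late in the cell cycle. RefSeq promoters on the mouse build GRCm38.p6, 250 bases before to 50 after each start, matched 31 of the 38 members. The members without a match were Kif20a, Kif5a, Kif5b, Kif21b, Kif13b, Kif19a and Kif4-ps. The stretches below run 5′ to 3′ on the gene's strand, are 30 bases long, and have each match to TTTGAA, or to its reverse complement TTCAAA, in capitals.
Kif11 (chr19:37376351-37376380, plus strand): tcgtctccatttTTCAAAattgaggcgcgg
Kif15 (chr9:122951050-122951079, plus strand): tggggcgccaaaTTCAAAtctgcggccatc
Kif22 (chr7:127042420-127042449, minus strand): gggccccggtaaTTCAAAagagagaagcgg
Kif23 (chr9:61946780-61946809, minus strand): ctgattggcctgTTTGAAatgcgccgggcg
Kif18b (chr11:102925104-102925133, minus strand): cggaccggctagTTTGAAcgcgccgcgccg
Kif20b (chr19:34922353-34922382, plus strand): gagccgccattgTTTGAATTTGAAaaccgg
Kif4 (chrX:100626072-100626101, plus strand): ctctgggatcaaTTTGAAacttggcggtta
Kif2c (chr4:117178858-117178887, minus strand): ccaggctgctctTTCAAAcctgagtaatgc
Kif14 (chr1:136467608-136467637, plus strand): ggaggtcctgtcTTTGAAgtctgcagtgtc

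Of 10 mitotic motors with a promoter, 9 held the hexamer on either strand, Kif18a being the exception, against 17.9% of all 32851 promoters of that length. In 7 of the 10 its first base lay within 30 bases of the start site, which 3.14% of all promoters share; this window was chosen after the positions were seen. Counted from the start as 1, the first base of the hexamer nearest the start stood at −19 in Kif11 and Kif15, −17 in Kif22, 3 in Kif23, 4 in Kif18b, 8 and 14 in Kif20b, and 20 in Kif4, so that it was upstream in 3 genes and within the first transcribed bases in 4. In Kif2c and Kif14 it lay farther upstream, at −103 and −228, and Kif15 and Kif22 held another copy at −234 and −215. Of 9 promoters of 7 axonal transport motors, 1 held the hexamer, a downstream start of Kif1a, at −44. Among the other motors it occurred in Kif27 and, at −9, in Kif26b. These 2 stretches show the Kif1a and Kif26b matches outside the mitotic group.
Kif1a (chr1:93082507-93082536, minus strand): tttgacagcctcTTTGAAcattgctcctaa
Kif26b (chr1:178529104-178529133, plus strand): tgggagaatttcTTTGAActcagttagcga

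The CCAAT box, the binding site of NF-Y, was searched in the same windows on both strands. It was found in 6 of 10 mitotic promoters and in 4 of 9 axonal promoters, against 37.4% of all promoters. The E2F-type octamer GGCGGGAA was found in none of these 19 promoters and in 2.19% of all. None of the 3 letter sets contains another, and a match is a description of the letters only. The stretches below cover 120 bases before to 30 bases after the start of 3 mitotic and 2 axonal motors, picked as examples, with TTTGAA and CCAAT on either strand in capitals.
Kif11 (chr19:37376262-37376411, plus strand): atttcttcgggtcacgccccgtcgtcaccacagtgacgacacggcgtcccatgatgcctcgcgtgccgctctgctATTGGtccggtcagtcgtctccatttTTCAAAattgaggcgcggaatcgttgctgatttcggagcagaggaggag
Kif23 (chr9:61946770-61946919, minus strand): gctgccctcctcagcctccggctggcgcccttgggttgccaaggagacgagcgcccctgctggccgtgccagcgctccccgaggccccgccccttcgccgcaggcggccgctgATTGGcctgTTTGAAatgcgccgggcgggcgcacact
Kif4 (chrX:100625945-100626094, plus strand): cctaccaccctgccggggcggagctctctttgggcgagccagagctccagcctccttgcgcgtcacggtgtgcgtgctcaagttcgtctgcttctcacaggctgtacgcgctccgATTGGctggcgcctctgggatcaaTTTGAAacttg
Kif5c (chr2:49619166-49619315, plus strand): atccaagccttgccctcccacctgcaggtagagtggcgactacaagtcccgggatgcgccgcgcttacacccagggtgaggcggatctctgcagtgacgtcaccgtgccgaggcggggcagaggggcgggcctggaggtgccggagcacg
Kif3b (chr2:153291296-153291445, plus strand): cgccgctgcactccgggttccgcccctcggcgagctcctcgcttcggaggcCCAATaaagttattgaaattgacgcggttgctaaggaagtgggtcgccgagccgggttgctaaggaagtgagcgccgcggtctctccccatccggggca
In Kif11, Kif23 and Kif4 a reversed CCAAT box precedes the hexamer, with first bases at −45, −7 and −5. Kif22 also had a reversed box, at −54, before its hexamer at −17. This arrangement was not general. In Kif18b the boxes, at −53 and −30, also preceded the hexamer but lay on the gene's own strand. In Kif14 the box at −92 followed the hexamer at −228. Kif22 and Kif4 held a further box on the gene's own strand, at −233 and −152. Kif2c, Kif15 and Kif20b held no box, and Kif18a held neither element.

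**Figure D1:**
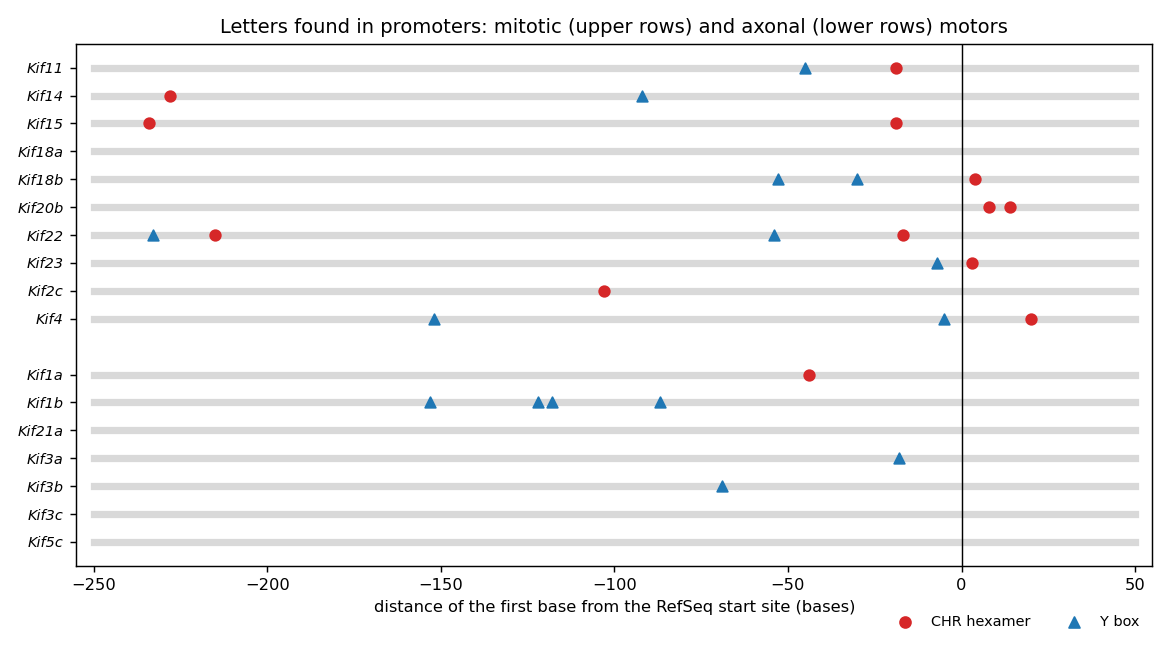
Positions of the CHR hexamer (circles) and of the CCAAT box, drawn as Y box (triangles), in the RefSeq promoters of 10 mitotic and 7 axonal transport motors; the x axis is the distance in bases from the start site, and grey bars span the 250 bases before and 50 after it. Both promoters of Kif1a and of Kif1b are drawn on 1 row each. In 7 mitotic motors a circle lies within 30 bases of the start, and in none of the axonal motors.

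Few kinesins differed by 2-fold between any 2 arrays. From E17.5 to P1 none of the 38 members reached 2-fold, against 0.667% of all 19938 genes. Comparing the array labelled P5 with P1, Kif19a exceeded 2-fold upward and Kif21b downward, 1 member each, against 5.52% of all genes higher and 2.43% lower. The same pair was apart by 2-fold on the array labelled P14 against that labelled P5 (Kif21b higher, background 1.30%; Kif19a lower, 2.75%) and on the array labelled P5 against E17.5 (Kif19a higher, 7.04%; Kif21b lower, 3.37%). Between E17.5 and the last label, P14, Kif26b alone reached 2-fold, higher on the latter, where 2.73% of all genes were that much higher, and no member did between P1 and that array, where 0.908% of genes were apart. In all, 3 of 38 members had a 2-fold range over the 4 arrays, against 12.2% of all genes. At 1.5-fold, 7 members were apart on the array labelled P5 against P1, 8 on that array against E17.5 and 6 on the array labelled P14 against that labelled P5, beside 21.0%, 23.7% and 13.8% of all genes, in that order. Shares of this size do not set the members apart from the genes as a whole.

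Smaller shifts of the mitotic motors all went one way. All 11 had their lowest value on the array labelled P5, which 40.8% of all genes share, or 47.2% of the genes whose mean lay under 8.41, the median log2 value of all single-symbol probe sets. Their median difference between the array labelled P5 and P1 was −0.46, with a range of −0.99 to −0.10, beside a median of −0.03 over all genes. Of the 11, 3 passed the 1.5-fold threshold downward, Kif15, Kif18a and Kif23, whose sizes are inexact at levels under 8.41, and none upward, against 8.15% of all genes at least 1.5-fold lower. These comparisons describe a list and have no test.

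Kif18a, which damps the swinging of chromosomes at the metaphase plate, stood at 8.01, 8.05, 7.06 and 7.99 in order of label. The array labelled P5 alone was low, with a log2 difference of −0.99 from P1; all 4 values lie under 8.41, so the size of the difference is inexact. Kif15, which helps to keep the spindle poles apart, stood at 7.67, 7.80, 6.98 and 7.54 in the same order. Kif11, the main motor that slides spindle poles apart, stood at 8.55, 8.66, 8.09 and 8.55. It was the only mitotic motor to reach 8.41 on any array, and its values at E17.5 and on the array labelled P14 were equal.

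The motors of the central spindle and of cytokinesis had the same low point. Kif23, a subunit of centralspindlin, which bundles midzone microtubules, stood at 8.19, 8.29, 7.70 and 8.26. Kif20a, which brings the chromosomal passenger complex to the midzone, stood at 7.86, 7.61, 7.30 and 7.89. Kif4, a chromosome-bound motor that acts with Prc1 at the midzone, stood at 7.00, 6.75, 6.57 and 6.84, and its processed copy Kif4-ps at 6.48, 6.57, 6.13 and 6.46; probes may not tell the pair apart. The array labelled P5 differed from P1 by −0.59 for Kif23, −0.31 for Kif20a and −0.18 for Kif4. Kif14, a motor of the last steps of cytokinesis, stood at 6.59, 6.70, 6.24 and 6.73 on the probe set used and at 5.36, 5.51, 5.06 and 5.63 on its other probe set. Both probe sets of Kif14 thus had their lowest value on the array labelled P5, by 0.46 and 0.45 against P1. Kif20b, a motor of abscission, stood at 7.00, 6.76, 6.57 and 6.62. Its values labelled P5 and P14 lay 0.05 apart, and their order turned with quantile normalisation (6.64 and 6.60), so that 10 of 11 mitotic motors were then lowest on the array labelled P5.

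Of the remaining mitotic motors, Kif2c, which takes apart microtubule ends at kinetochores, stood at 7.39, 7.38, 6.87 and 7.27. Kif18b, which shortens astral microtubules, stood at 8.33, 8.17, 7.89 and 8.12. Kif22, which pushes chromosome arms away from the poles, stood at 7.58, 7.52, 7.42 and 7.53. Its whole range over the arrays was 0.16, the smallest of the mitotic motors.

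Without the array labelled P5, the mitotic motors were nearly level. Between E17.5 and P1 their median difference was −0.01 (−0.25 to 0.13), with 5 above and 6 below 0, and over the longest span of labels, from E17.5 to P14, it was −0.05 (−0.38 to 0.14). Where 1 gene had several probe sets, their disagreement over 999 such genes gave a standard deviation of 0.14 for a P1 against E17.5 difference and 0.25 for the array labelled P5 against P1. This holds probe noise and not the spread between pools of mice. Of the 11 differences from P1 on the array labelled P5, 8 were larger than this 0.25, while 4 of the 11 differences between E17.5 and P1 were larger than 0.14. Such sizes were common over all genes. Of 19938 genes, 5430 lay below −0.24 and 5396 above 0.24 on the array labelled P5 against P1. Between E17.5 and P1, 6004 lay below −0.13 and 4211 above 0.13.

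Dim genes in general were shifted on the array labelled P5, and so were the brightest. Genes with a mean between 6 and 7 had a median difference of −0.12 from P1 and 57.6% had their lowest value there; between 7 and 8 these were −0.05 and 46.0%, and between 8 and 9 they were 0.06 and 31.9%. Of the mitotic motors, 3, 5 and 3 lie in these 3 ranges of level. Among the 68 genes with a mean between 13 and 14 the median was −0.19, and 63.2% were lowest there. Outside the mitotic group, 11 members had a mean under 8.41; against P1 the array labelled P5 was lower for 7 of them and higher for 4 (median −0.07), and for 6 it was the lowest array. Kif2b, which the grouping placed with the other kinesins, stood at 6.56, 6.58, 6.10 and 6.55, and Kif27 at 6.75, 6.69, 6.07 and 6.56. Kif9 and Kif7 differed from P1 by 0.15 and 0.10 upward on the array labelled P5. The other probe set of Kif7 differed by −0.05. With each array centred within bins of level, an alternative added after seeing the data, the mitotic median against P1 was −0.35, and 10 of 11 motors were lowest on the array labelled P5.

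**Figure D2:**
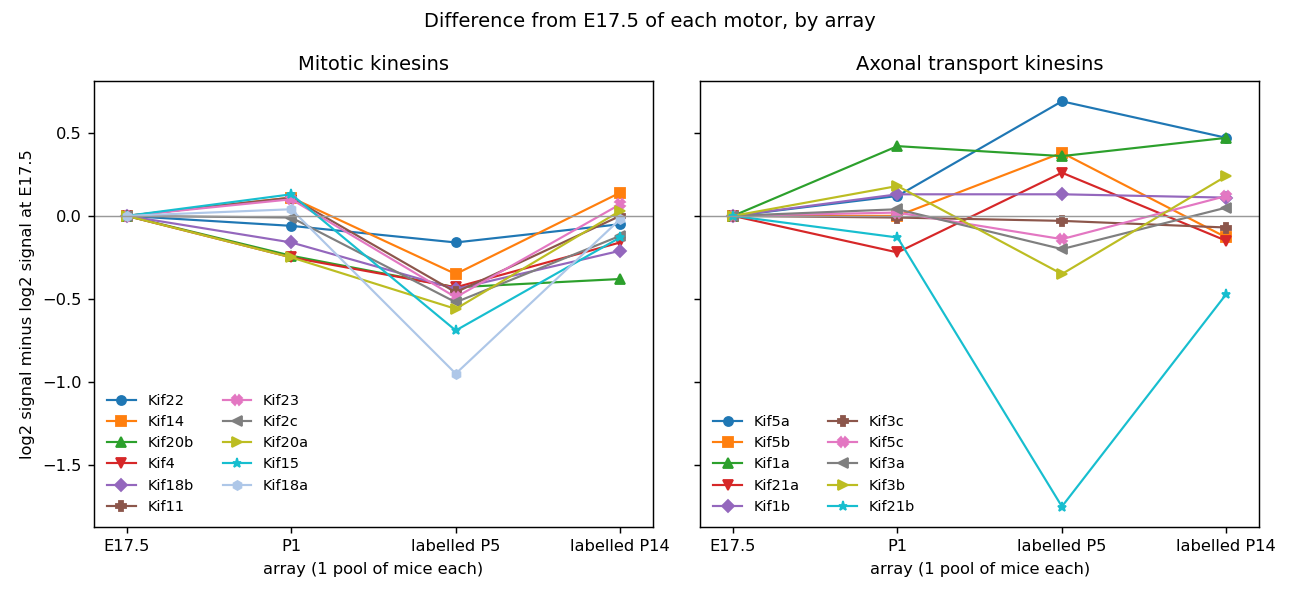
Log2 signal of each mitotic (left) and axonal transport (right) motor minus its own log2 signal at E17.5 (y axis), on each of the 4 arrays (x axis); each line is 1 gene and each point 1 array. All 11 mitotic lines have their lowest point on the array labelled P5, whereas the axonal lines spread from −1.75 (Kif21b) to 0.69 (Kif5a) there.

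Partners of the mitotic motors had the same low point. In a list of 23 spindle and cytokinesis genes, 22 were on the array, 21 of them were lowest on the array labelled P5, and the median difference from P1 was −0.56. Of the 22, 10 were at least 1.5-fold lower and 1 higher, beside 8.15% and 12.8% of all genes, and 40.8% of all genes were lowest on that array. Prc1, the midzone crosslinker that Kif4 and Kif14 bind, stood at 7.73, 7.73, 6.88 and 7.82. Racgap1, the partner of Kif23 in centralspindlin, stood at 9.47, 9.33, 8.57 and 9.17, a difference of −0.76 from P1 between levels above 8.41. The proliferation antigen Mki67 stood at 9.22, 9.24, 8.47 and 9.25, and Top2a, the topoisomerase of dividing cells, at 8.65, 8.54, 7.84 and 8.52. The exception was Anln, a cytokinesis scaffold that myelinating oligodendrocytes are also known to express, at 7.57, 7.44, 10.20 and 7.37. Cenpe, the kinetochore kinesin whose symbol falls outside the rule, stood at 7.24, 7.46, 6.77 and 7.44. The hexamer was present in 18 of 21 promoters of these partners, beside 17.9% of all promoters. The 21 promoters belong to 19 genes, of which 16 held it. Within 30 bases of the start, the window chosen after the mitotic positions were seen, it lay in 13 promoters, beside 3.14% of all.

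The axonal transport motors had no common direction. Their median difference on the array labelled P5 against P1 was −0.04, with 3 above 0, 6 below and 1 at 0, and all 10 reached 8.41 on every array. Against E17.5, 5 were higher and 5 lower on the array labelled P5, from −1.75 to 0.69. The lower limit was Kif21b, and the next lowest was Kif3b at −0.35. Of the 10, 1 was at least 1.5-fold lower against P1 and none higher, beside 8.15% and 12.8% of all genes. Between E17.5 and P1 the median was 0.03 (−0.22 to 0.42), and none of the 10 was at least 1.5-fold apart, which 3.85% of all genes were.

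Kif21b stood out within the group. This kinesin-4 motor slows microtubule growth and carries cargo in neurons. Its place among the axonal transport motors was a choice of the grouping. In order of label its values were 11.88, 11.75, 10.13 and 11.41. The array labelled P5 was low and the other 3 lay within 0.47, so that the signal was 3.07-fold lower than at P1 (−1.62), a difference that 120 of 19938 genes exceeded in that direction. It was 2.43-fold higher on the array labelled P14 than on that labelled P5 (1.28). In the list of young neuron genes, which includes Dcx, all 10 were lowest on the array labelled P5, beside 40.8% of all genes. Their median difference from P1 was −1.82, led by Cd24a (−4.22) and Igfbpl1 (−3.13). Of the 10, 8 were at least 2-fold lower, beside 2.43% of all genes. Stmn2 (−0.47) and Nhlh1 (−0.32) were not, and Nhlh1 had already fallen from 10.02 at E17.5 to 6.07 at P1. The part of young neurons in the Kif21b value was not tested. Its relative Kif21a, also a kinesin-4 motor, went the other way at 10.42, 10.20, 10.68 and 10.27, highest on the array labelled P5.

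The 3 kinesin-1 heavy chains, the classic motors of fast axonal transport, differed in direction. Kif5a, which is largely neuronal, stood at 11.53, 11.65, 12.22 and 12.00 in order of label. It was lowest at E17.5, against which the array labelled P5 was 1.61-fold higher (0.69); among axonal motors Kif5a alone passed 1.5-fold upward in that comparison, as 13.5% of all genes did. Kif5b, found in most cell types, stood at 10.92, 10.92, 11.30 and 10.79. It was high on the array labelled P5 alone, by 0.38 against P1. Kif5c, another neuronal form, stood at 11.88, 11.90, 11.74 and 12.00, a range of 0.26 with its low point where Kif5a and Kif5b had their high point. On that array the neurofilament gene Nefh, of large mature axons, stood at 12.36 against 8.68 at P1, and myelin genes were higher too, as given for Mog; their part in the Kif5a and Kif5b values was not tested.

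Among kinesin-3 motors, Kif1a, which carries synaptic vesicle precursors, stood at 12.69 at E17.5 and at 13.11, 13.05 and 13.16 on the arrays labelled P1, P5 and P14. Only E17.5 was low, and the difference of 0.42 between P1 and E17.5 was exceeded by 919 of 19938 genes. Kif1b, which carries vesicle precursors and mitochondria, stood at 12.36, 12.49, 12.49 and 12.47, a range of 0.13, beside a standard deviation between probe sets of 0.12 for a P1 against E17.5 difference among genes that reach 8.41.

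The kinesin-2 motors Kif3a and Kif3b, which pair with each other, stood at 10.55, 10.59, 10.35 and 10.60 for Kif3a and at 10.34, 10.52, 9.99 and 10.58 for Kif3b. Both were lowest on the array labelled P5, with differences of −0.24 and −0.53 from P1, and their ranges over the arrays were 0.25 and 0.59. Kif3c, a neuronal partner of Kif3a, stood at 11.11, 11.10, 11.08 and 11.04, the smallest range of the group at 0.07. Kifap3, which links the pair to cargo, stood at 11.36, 11.25, 11.23 and 11.33.

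**Figure D3:**
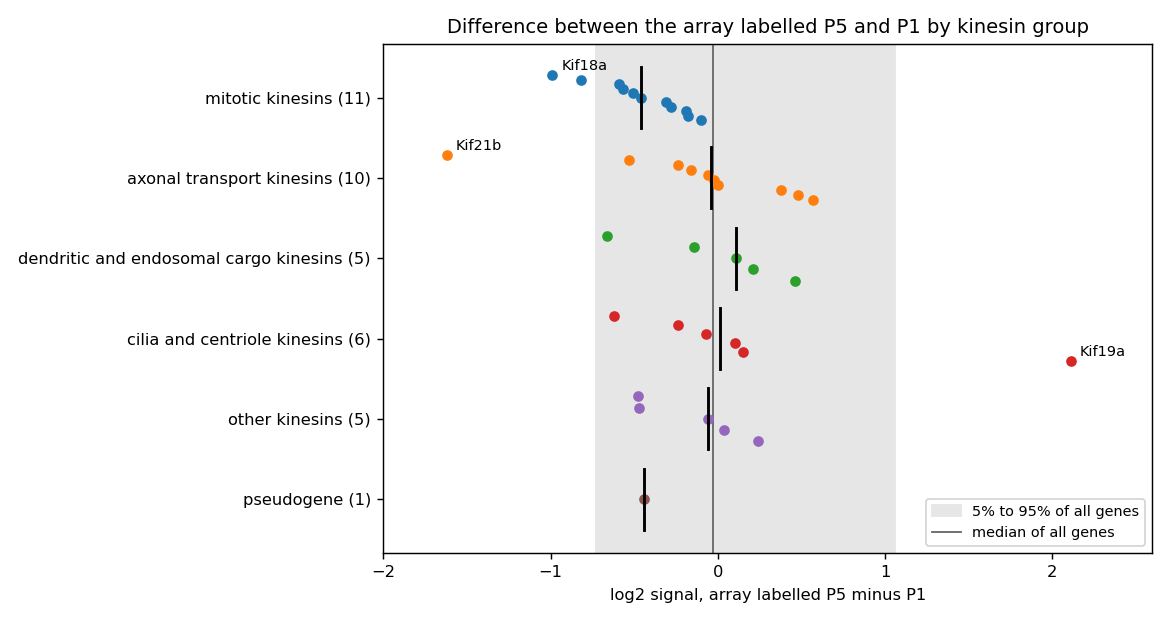
Log2 signal on the array labelled P5 minus that at P1 (x axis) for all 38 members, grouped by role (y axis, number of genes in brackets); each point is 1 gene, black bars are group medians, the grey band spans the 5% to 95% quantiles of all 19938 genes and the grey line is their median. The 11 mitotic motors all lie below 0, and Kif21b, Kif15, Kif18a and Kif19a lie outside the band.

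Of the motors with other roles, Kif19a had the widest range of all members, 2.11. It is known as a motor that limits the length of motile cilia. Its values in order of label were 7.47, 7.16, 9.27 and 7.58. The array labelled P5 alone was high and the other 3 lay under 8.41, so the size of the difference is inexact; 197 of 19938 genes had a larger positive one against P1. Among markers of ependyma and choroid plexus, which hold ciliated cells of the brain, none of 7 reached 8.41 on any array, and Foxj1, the master factor of motile cilia, stood at 7.09, 7.18, 7.16 and 7.18. Several glial lists were also high on the array labelled P5, where 31.2% of all genes had their highest value. Of 9 myelin genes all 9 were highest there, with a median difference of 4.83 from P1 and a summed linear signal of 2420, 3860, 62100 and 8470 in order of label. So were 7 of 8 genes of oligodendrocyte precursors, 7 of 8 of microglia and 5 of 8 of astrocytes. The part of any of these cell types in the Kif19a value was not tested. The other 5 motors of cilia and centrioles, Kif6, Kif7, Kif9, Kif24 and Kif27, lay under 8.41 on every array. On the probe sets used, all but Kif27 had ranges of 0.24 or less. The other probe set of Kif6 stood at 6.98, 6.86, 7.14 and 6.86, highest on the array labelled P5.

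Kif26b, an unusual kinesin known from kidney development and cell adhesion, stood at 9.33, 9.80, 10.04 and 10.34 in order of label, each array higher than the one before. Its second probe set had the same order, at 8.60, 8.84, 9.27 and 9.49. The array labelled P14 exceeded E17.5 by 1.01 (2.01-fold) on the first probe set and by 0.89 on the second, so that the 2-fold call was lost with the mean of the probe sets. Its relative Kif26a stood at 8.25, 8.24, 8.28 and 8.36, a range of 0.12.

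Motors of dendritic and endosomal cargo had a median difference of 0.11 between the array labelled P5 and P1, with 3 of 5 above 0. Kif13a, which carries receptors to the cell surface, stood at 9.66, 9.92, 9.26 and 9.86. It was the 1 member of the group at least 1.5-fold lower there (−0.66). Kif1c, a vesicle motor of many cell types, was highest on that array on both of its probe sets, with 8.23, 8.39, 8.85 and 8.46 on the first and 7.11, 7.40, 7.94 and 7.50 on the second. Kif13b, Kif16b and Kif17 had ranges of 0.40, 0.27 and 0.20. Kif2a, a depolymerase that limits axon branching, stood at 11.31, 11.32, 10.85 and 11.27, low on the array labelled P5 alone. Kif12, a motor known from kidney and other epithelia, stood at 7.03, 6.85, 6.79 and 7.05. The genes in this paragraph, and Kif26a, Kif2b and Kif27, were chosen for mention after their values were seen.

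**Figure D4:**
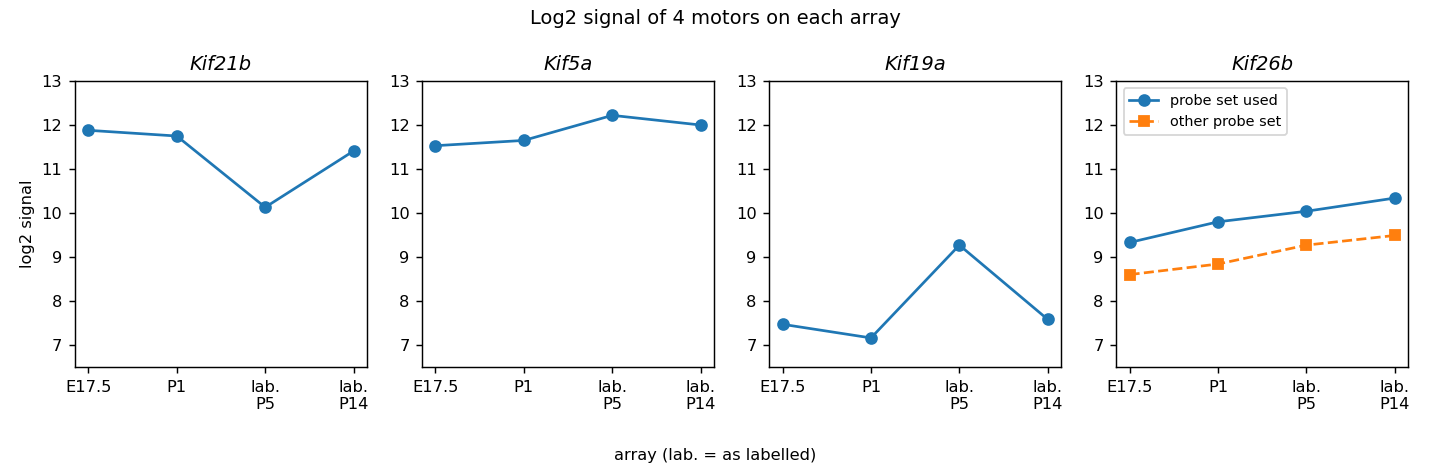
Log2 signal (y axis) on each array (x axis, as labelled) of Kif21b, Kif5a, Kif19a and Kif26b; each point is 1 probe set on 1 array, and for Kif26b the second probe set is drawn with dashes. Kif21b is low and Kif19a high on the array labelled P5 alone, and both probe sets of Kif26b are higher on each array than on the one labelled with the age before.

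Light chains and adaptors, which attach motors to cargo, had no common direction either. Of 25 listed genes, 21 were on the array; their median difference between the array labelled P5 and P1 was 0.10, with 3 at least 1.5-fold higher and 2 lower, beside 12.8% and 8.15% of all genes. Klc1, the main neuronal light chain, stood at 11.88, 11.80, 12.04 and 11.90. Trak2, a mitochondrial adaptor, stood at 10.75, 10.88, 11.85 and 11.19, while its relative Trak1 stood at 11.09, 11.41, 11.10 and 11.43. Both were lowest at E17.5, and they differed in the place of the array labelled P5, where Trak2 was highest and Trak1 lay 0.01 above its E17.5 value. Mapk8ip3, an adaptor of kinesin-1, differed from P1 by 0.61 there, Fez2 by 0.78, the liprin gene Ppfia2 by −0.85 and Kidins220 by −0.75. Kifc2, a neuronal motor of the C-terminal kinesin family, which walks the opposite way from most kinesins, stood at 9.91, 10.77, 11.79 and 11.14, with a 2.03-fold higher signal on the array labelled P5 compared with P1.

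Genes of cytoplasmic dynein, the motor for return transport, mostly stayed within 2-fold but leaned upward on the array labelled P5. Of 22 listed subunits and cofactors, 20 were on the array. Their median difference between the array labelled P5 and P1 was 0.21, beside −0.03 over all genes. On the array labelled P5, 12 of the 20 were highest, as were 31.2% of all genes. Against P1, 3 were at least 2-fold higher there and none lower, beside 5.52% and 2.43% of all genes. The heavy chain Dync1h1 stood at 12.27, 12.26, 12.11 and 12.19. The 3 that were higher were the intermediate chain Dync1i1, at 7.72, 8.50, 10.25 and 9.95, the light chain Dynlt3, at 8.39, 8.80, 10.35 and 9.28, and the cofactor Nde1, at 8.21, 8.30, 9.49 and 8.43. Of these, Dync1i1 alone also exceeded 2-fold between E17.5 and the array with the last label, with a log2 difference of 2.23. The lowest differences from P1 were those of Dync1i2 (−0.38), the other intermediate chain gene, and Actr1a (−0.35).

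**Figure D5:**
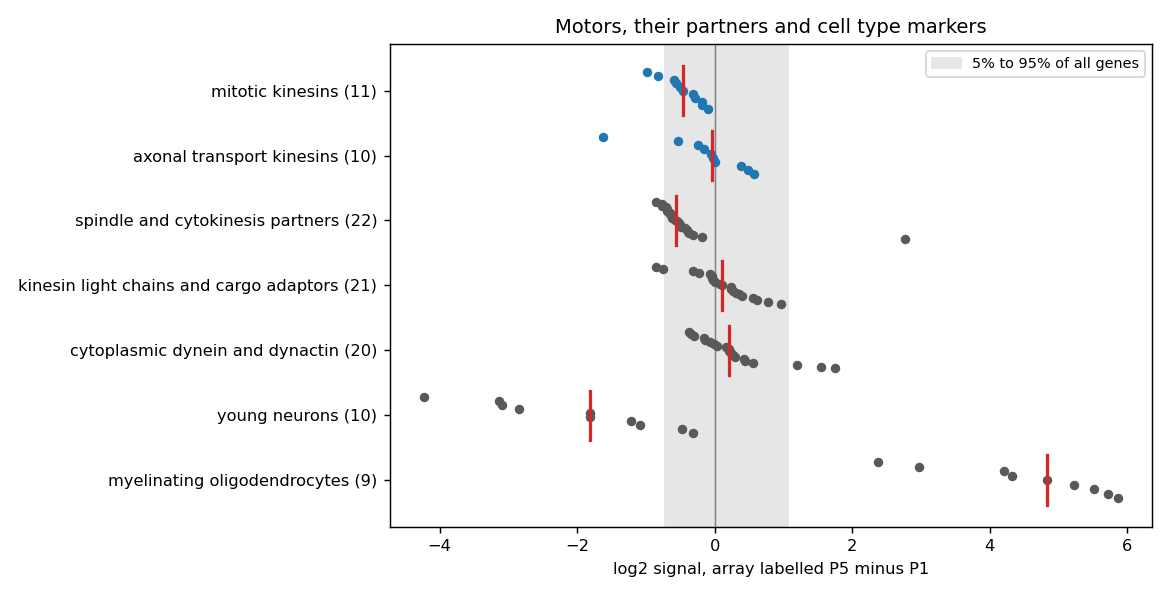
Log2 signal on the array labelled P5 minus that at P1 (x axis) for the mitotic and axonal motors and for partner and marker lists (y axis, number of genes in brackets); each point is 1 gene, red bars are medians and the grey band spans the 5% to 95% quantiles of all 19938 genes. The spindle partners lie with the mitotic motors except Anln at 2.76, while young neuron genes and myelin genes have medians of −1.82 and 4.83.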

How the data were processed

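The deposited values are log2 signals per probe set; per the submitters' processing notes they were made with Affymetrix Expression Console, with version, summary method and normalisation not given in the sources used here. Values of 1.84 to 14.72 showed the log2 scale. Array medians were 7.89 to 7.94, and no arrays were identical. Of 35556 probe sets, 21789 had 1 gene symbol in the platform's table and 1621 had several.

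Differences between arrays were taken per gene with Python 3.11.15, pandas 2.3.3 and numpy 2.4.6, without rescaling or a level filter, so that every member counts. Sizes of 2-fold and 1.5-fold were counted over all 19938 genes; the counting was tested on simulated data. A level of 8.41 or more was reached by 18 of 38 members on their highest array and by 17 on their mean. The fold of a single gene is given only between levels of at least 8.41, while counts past a threshold include dimmer genes, whose sizes are inexact. Promoters are from RefSeq, GRCm38.p6.

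All mitotic and axonal motors, other motors with a 2-fold range, the largest differences of each list and a fixed set of partners were to be named; Kifc1, Klc2 and Kif1bp among these had no probe set with a single symbol. Members and lists were chosen with earlier results of these data known.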

Additional observations from a re-analysis of the deposited data

How the results depend on the processing

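Of 19 results (2-fold counts of members and median differences of the mitotic and axonal motors in 6 comparisons, and the number of mitotic motors lowest on the array labelled P5), all 19 were counted as held under quantile normalisation and under centring within level bins 0.5 wide, medians within the probe set spread. The latter, and every alternative for the count of lowest mitotic motors, were added after seeing the data. That count was 10 rather than 11 under both. Medians near 0 could hardly fail this rule. The axonal median on the array labelled P5 against P1 changed sign, from −0.04 to 0.03, with centring within level bins. Other axonal medians near 0 did so too. That of the array labelled P14 against P5 went from 0.04 to −0.04 with the same centring. That of the array labelled P5 against E17.5 went from 0.05 to −0.06 with arrays centred on their medians. This last setting also put 3 members rather than 2 at least 2-fold apart on the array labelled P5 against P1 and against E17.5. With a filter on mean level, 1 member rather than 2 was at least 2-fold apart on the array labelled P5 against P1, against E17.5 and on that labelled P14 against P5, since Kif19a was left out; with either level filter Kif11 was the 1 mitotic motor left, lowest on the array labelled P5. At 1.5-fold, 7, 8 and 6 members were apart in these comparisons, in that order. The 2-fold call of Kif26b from E17.5 to P14 was lost, leaving 0, with the mean of all probe sets and with arrays centred on their medians. No paired analysis was possible because each age has 1 array. That number limits every difference, and background signal was not measured.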
